A study of Mus musculus with 10 samples.

Results

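Solute carriers are the large superfamily of membrane proteins, named Slc with a family number, that move amino acids, sugars, metals, ions, nucleotides and vitamins across the plasma membrane and the membranes of organelles. The 152 genes described here are those of the raw count table whose symbol starts with Slc, a family number, the letter a and a member number, and whose raw counts summed to at least 500 over the 10 libraries; they were chosen by their measured counts and, with earlier results in view, as genes of 1 superfamily. The table of 23284 genes holds 337 such symbols, of which 172 fell under that minimum and 13 were left out by name: Slc2a1, Slc2a3, Slc2a6, Slc16a1, Slc16a3, Slc7a2, Slc7a11, Slc5a3, Slc6a12, Slc6a6, Slc40a1, Slc11a1 and Slc11a2. Just inside the minimum stood Slc29a2 with 507 summed counts, Slc22a18 with 528 and Slc39a12 with 532, and just outside it Slc16a9 with 468, Slc25a27 with 377 and Slc4a11 with 371. All 152 passed the filter on low counts and were tested. Of these, 148 are carrier genes. The other 4 match the symbol rule but are no carriers: Slc9a3r1 (a scaffold protein), Slc4a1ap, Slc7a6os and the pseudogene Slc2a4rg-ps.

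The cells were macrophages grown from bone marrow of C57BL/6J mice for 6 days in medium with 30 ng/ml recombinant mouse M-CSF. They were given Kdo2-lipid A, the inner part of lipopolysaccharide and an agonist of Toll-like receptor 4, at 0.03 nM for 1 h, 0.03 nM for 2 h, 10 nM for 1 h or 10 nM for 2 h, or were left untreated. The labels give the untreated libraries as 0 nM and 0 h, and no untreated library was taken at 1 h or 2 h. In comparisons with untreated cells, Kdo2-lipid A and elapsed time therefore cannot be told apart. Their polyadenylated RNA was sequenced. Each of the 5 groups has 2 libraries, 1 from each of 2 experiments that the labels number. Each p-value rests on the spread within groups, estimated over all 5 groups in 1 fit without a term for the experiment. For each gene, edgeR moderates that spread towards a trend over all genes tested. That spread covers only these 2 experiments. Replicate 1 and replicate 2 of a group are its libraries from experiments 1 and 2. Whether an experiment was 1 mouse or a pool is not given in the labels.

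In macrophages, carriers set the supply of arginine, glutamine and leucine, load lysosomes and phagosomes with ions and metals, and connect the cytosol with the mitochondrion. Zinc is handled by 2 opposing families: Slc39 proteins (ZIP) bring zinc into the cytosol, and Slc30 proteins (ZnT) take it out, into organelles or out of the cell. Family 25 proteins sit mostly in the inner mitochondrial membrane. Several members of family 7 are transporting light chains that work with the heavy chain Slc3a2, which brings them to the surface.

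Library totals lay between 33179599 and 42167096 counts, and the members took 0.896% to 1.09% of them. Levels are given in CPM, counts scaled to a common library size by TMM. The 8 macrophage markers summed to 23780 to 32540 CPM. Erythroid markers summed to at most 0.657 CPM, B cell markers to 4.92 to 9.74 CPM and neutrophil markers, of which 7 of 8 were in the table, to 18.4 to 37.6 CPM. The neutrophil sum was highest at 10 nM and 2 h, with 30.7 to 37.6 CPM, against 18.4 to 25.6 CPM in untreated cells. T and NK cell markers summed to 0.144 to 6.02 CPM, and at 10 nM and 2 h, where the sum was highest, Lck alone had 5.12 CPM in experiment 1. Stromal and endothelial markers summed to 51.4 to 72.9 CPM in experiment 1 and 93.5 to 129.6 CPM in experiment 2. Their sum was highest at 10 nM and 2 h in each experiment, with 72.9 and 129.6 CPM, against 51.4 and 93.5 CPM in untreated cells. In that group Kdr had 18.3 and 27.5 CPM, against 3.62 and 5.52 CPM in untreated cells. Pdgfrb had 8.54 and 9.61 CPM, against 1.55 and 2.75 CPM. The collagen genes did not rise alike: Col1a1 had 4.76 and 18.5 CPM, against 7.69 and 17.2 CPM. Col1a2 had 8.18 and 21.95 CPM, against 8.55 and 21.6 CPM. The part of these markers in the values below was not tested. The 2 libraries at 0.03 nM and 2 h differed more than other pairs: the SD of the log2 difference between them over the 152 members was 0.324, against 0.22 to 0.278 in the other groups. In that pair, the difference between experiments followed exonic length (Spearman's rho -0.661 across 9210 genes, which are not independent replicates), against -0.0244 to 0.342 in the other 4 pairs. In bulk RNA, less RNA per cell and fewer cells of a type cannot be told apart.

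To compare genes, levels were divided by exonic length. The highest levels per kb in untreated macrophages were those of mitochondrial carriers and of a carrier of the endolysosome. Slc25a3, the mitochondrial phosphate carrier, stood first with 184 CPM per kb, followed by Slc25a5, an ADP/ATP carrier, with 175. Next were the heme transporter of endolysosomes Slc48a1 with 129.9, the amino acid carrier Slc43a2 with 120.5, the sugar phosphate exchanger family member Slc37a2 with 106.9, and the other ADP/ATP carrier Slc25a4 with 105.7. The peptide and histidine transporter Slc15a3 came next with 89.7 CPM per kb, then the zinc importer Slc39a1 with 83.6, the fatty acid transport protein Slc27a1 with 75.2, the scaffold gene Slc9a3r1 with 70.7, and Slc3a2 with 69.998. Some abundant members were not called at 10 nM and 2 h. Slc25a4 had 125.2 and 115.6 CPM at 10 nM and 2 h, against 121.8 and 111.3 CPM in untreated cells. Slc9a9, an endosomal sodium/proton exchanger, had 255 and 241 CPM at 10 nM and 2 h, against 235 and 223 CPM in untreated cells. Slc39a7, which releases zinc from the endoplasmic reticulum, had 143 and 135 CPM at 10 nM and 2 h, against 134 and 123.6 CPM in untreated cells. Under library totals, in place of the TMM scale, these 3 were called lower at 10 nM and 2 h (-0.51 for Slc25a4, -0.44 for Slc9a9 and -0.45 for Slc39a7 on the log2 scale). Slc25a4 and Slc25a5 share sequence, so their counts are uncertain where reads fit both.

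A member was called when its Benjamini-Hochberg adjusted p, over all 12918 genes tested with edgeR's quasi-likelihood test, was below 0.05. At 0.03 nM and 1 h, 2 of 152 members were higher than in untreated cells, a share of 1.32%, against 1.42% of all genes tested. No member was called lower by edgeR, against 0.108% of all genes; 3 members were lower at an unadjusted p below 0.05, and DESeq2 called 1 lower. At 0.03 nM and 2 h, 16 members (10.5%) were higher, against 6.45% of all genes, and 13 (8.55%) were lower, against 3.37%. After 1 h of 10 nM, 31 (20.4%) were higher, against 18.5%, and 32 (21.1%) lower, against 18.3%. At 10 nM and 2 h, 39 (25.7%) were higher, against 28.6%, and 62 (40.8%) lower, against 30.1%. Members needed 500 counts, which many genes tested do not reach. Among the 10814 genes tested with at least 500 counts, 33.4% were lower and 31.6% higher at 10 nM and 2 h, and 4% lower and 7.46% higher at 0.03 nM and 2 h. The median log2 fold change of members at 10 nM and 2 h was -0.14, against -0.03 over all genes tested. These shares are descriptions; the members were chosen with earlier results known.

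The scale matters at 10 nM. With counts scaled by library totals in place of TMM factors, the median over all genes moved to -0.38 at 10 nM and 1 h and to -0.59 at 10 nM and 2 h. The member calls became 24 higher and 92 lower at 1 h and 27 higher and 107 lower at 2 h. Changes below are relative to the bulk of genes, as TMM gives them. Under library totals, 3 of the 31 rises at 10 nM and 1 h and 7 of the 39 at 10 nM and 2 h had a negative log2 fold change, and no fall turned positive. Of the members not called by TMM, 60 of 89 at 10 nM and 1 h and 41 of 51 at 10 nM and 2 h were called lower under library totals, so that not called at 10 nM below holds for the TMM scale. Without each library in turn, 40 of the 63 calls at 10 nM and 1 h, 75 of the 101 at 10 nM and 2 h and 14 of the 29 at 0.03 nM and 2 h kept an adjusted p below 0.05 in every fit. Without 0.03 nM 2 h replicate 1, 51 members were called at 0.03 nM and 2 h, and without either untreated library 16 were. The 32 falls at 10 nM and 1 h became 18 without 10 nM 1 h replicate 2, 21 without 10 nM 1 h replicate 1, 19 without untreated replicate 1 and 20 without untreated replicate 2. At 0.03 nM and 1 h, no member was called without either untreated library, and 6 were without either library at 0.03 nM and 2 h.

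**Figure D1:**
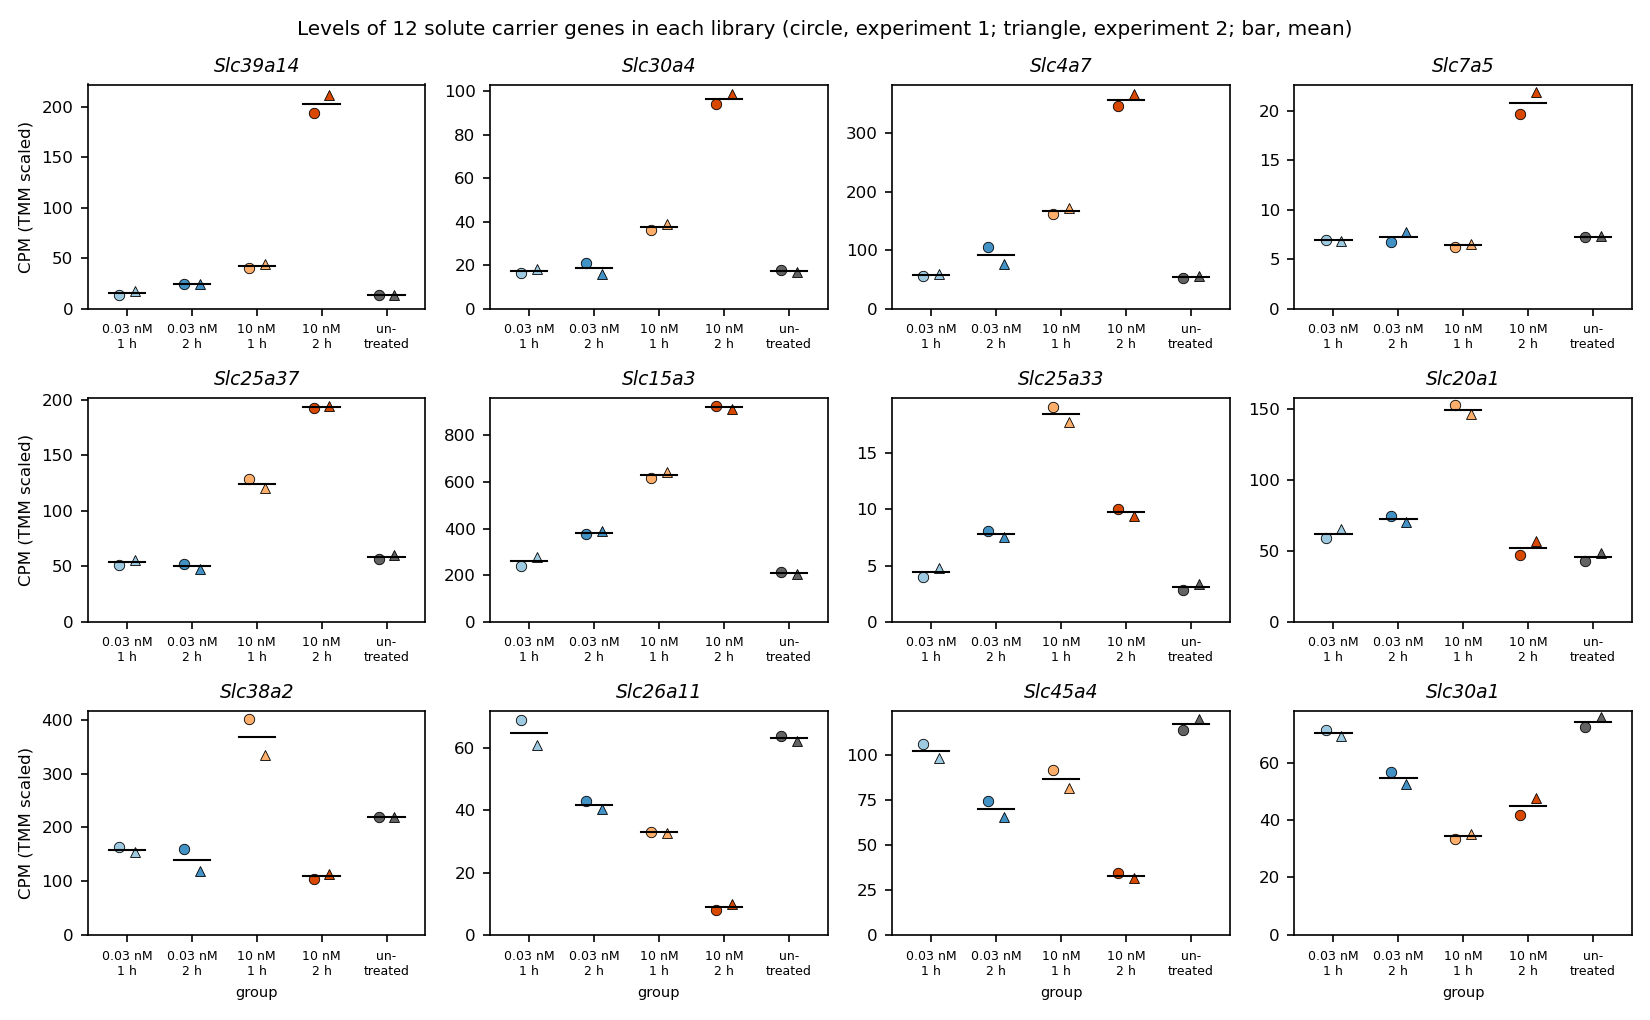
TMM-scaled CPM (linear axis from 0) of 12 solute carrier genes in every library, by group; circles are experiment 1, triangles experiment 2 and bars the mean of both. Slc39a14 stood at 194 and 212 CPM at 10 nM and 2 h, against 13.4 and 13.8 CPM in untreated cells, while Slc25a33, Slc20a1 and Slc38a2 were highest at 10 nM and 1 h.

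Zinc carriers moved in both directions. At 10 nM and 2 h, 6 of the 18 zinc carriers rose and 4 fell (33.3% and 22.2%, against 28.6% and 30.1% of all genes), and under library totals 5 were higher and 11 lower. The importer Slc39a14 (ZIP14; chromosome 14, 70703274 to 70751231 in mm9), which also carries iron and manganese, had the largest rise of all members at that time. Slc39a14 had 13.7 and 17.6 CPM at 0.03 nM and 1 h and 23.9 and 24.2 CPM at 0.03 nM and 2 h. At 10 nM Slc39a14 had 40.2 and 44.4 CPM at 1 h and 194 and 212 CPM at 2 h, against 13.4 and 13.8 CPM in untreated cells. The 2 libraries at 10 nM and 2 h lay above the other 8, and those at 10 nM and 1 h came next. Its log2 fold change was 3.90 ± 0.12, adjusted p = 1.41e-10 at 10 nM and 2 h, 1.64 ± 0.11 at 10 nM and 1 h and 0.83 ± 0.11 at 0.03 nM and 2 h (± SE, as throughout). Slc39a1 (ZIP1), the most abundant zinc importer per kb, had 375 and 364 CPM at 1 h and 475 and 465 CPM at 2 h of 10 nM, against 202 and 189.9 CPM in untreated cells. The difference was 1.26 ± 0.08 on the log2 scale at 2 h. Slc39a13, which moves zinc out of vesicles of the secretory pathway, had 36.5 and 44.4 CPM at 0.03 nM and 1 h and 56.4 and 67.6 CPM at 0.03 nM and 2 h. At 10 nM Slc39a13 had 89.7 and 87.4 CPM at 1 h and 72.4 and 68.5 CPM at 2 h, against 30.1 and 31.2 CPM in untreated cells. It was highest at 10 nM and 1 h, and the 2 libraries at 0.03 nM and 2 h lay close below those at 10 nM and 2 h. The importer Slc39a3 (ZIP3) went the other way, with 14.98 and 13.3 CPM at 1 h and 10.999 and 12.3 CPM at 2 h of 10 nM, against 24.7 and 25.5 CPM in untreated cells. At 2 h Slc39a3 was at -1.11 ± 0.10 on the log2 scale.

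Among the ZnT genes, Slc30a4, which loads zinc into endosomes and lysosomes, had 16.1 and 18.2 CPM at 0.03 nM and 1 h and 21.1 and 16.1 CPM at 0.03 nM and 2 h. At 10 nM Slc30a4 had 35.97 and 39.1 CPM at 1 h and 94.3 and 98.9 CPM at 2 h, against 17.7 and 16.995 CPM in untreated cells. The 10 nM groups stood above all other libraries, and the 0.03 nM ones overlapped the untreated ones. Its log2 fold change at 10 nM and 2 h was 2.48 ± 0.12, adjusted p = 7.69e-09. Slc30a6, the non-transporting partner of Slc30a5 in the early secretory pathway, rose, with 16.1 and 15.9 CPM at 1 h and 26.04 and 25.2 CPM at 2 h of 10 nM, against 8.62 and 8.94 CPM in untreated cells. Slc30a5 itself fell, with 86.97 and 79.5 CPM at 1 h and 55.1 and 53.2 CPM at 2 h of 10 nM, against 101.3 and 103.8 CPM in untreated cells. Their log2 fold changes at 10 nM and 2 h were 1.55 ± 0.11 for Slc30a6 and -0.92 ± 0.08 for Slc30a5. Slc30a7, of the Golgi, had 144 and 126.1 CPM at 1 h and 95.3 and 102.1 CPM at 2 h of 10 nM, against 63.8 and 70.8 CPM in untreated cells. Its rise at 2 h, 0.55 ± 0.11, was -0.0046 and not called under library totals. Slc30a1 (ZnT1) is the exporter of the plasma membrane, and its transcription is known to follow cytosolic zinc through the factor Mtf1, which binds metal response elements. Slc30a1 had 71.2 and 69.1 CPM at 0.03 nM and 1 h and 56.8 and 52.7 CPM at 0.03 nM and 2 h. At 10 nM Slc30a1 had 33.4 and 35.1 CPM at 1 h and 41.9 and 47.7 CPM at 2 h, against 72.3 and 75.8 CPM in untreated cells. It was lowest at 10 nM and 1 h (-1.11 ± 0.08, adjusted p = 7.67e-07) and the 2 libraries at 2 h lay between those at 1 h and the untreated ones. Of its exonic length, 8.95% overlaps 1700034H15Rik on the opposite strand. The fall of Slc30a5 at 10 nM and 1 h, -0.30 ± 0.08, lost its call in 2 of the 10 fits without 1 library (highest adjusted p 0.111, without 10 nM 1 h replicate 2). The call of Slc30a6 at 0.03 nM and 2 h was lost without untreated replicate 1 (0.54, adjusted p 0.0639) and that of Slc30a1 without untreated replicate 2 (-0.40, adjusted p 0.0665).

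Genes outside the family that buffer zinc were measured in the same fit. The metallothionein genes Mt1 and Mt2, which bind zinc and are targets of Mtf1, were called higher. The log2 fold change of Mt1 was 0.69 ± 0.15 at 10 nM and 1 h and 1.88 ± 0.15 at 10 nM and 2 h. That of Mt2 was 3.30 ± 0.21 at 1 h and 5.79 ± 0.22 at 2 h. Mtf1 itself had a log2 fold change of 0.38 ± 0.11 at 1 h, called, and of 0.02 ± 0.12 at 2 h, not called. Promoter letters can be set beside these values. RefSeq promoter windows (GRCm38.p6, 250 bases before each annotated start) were matched by symbol for 115 of the 152 members. A metal response element, searched as TGCACNC or TGCGCNC on both strands, was present in 34.8% of these members and in 23.8% of all 27025 genes with a window. A gene counted when any of its windows held a match. Members had 1.34 starts per gene, against 1.22 for all genes, so more sequence was searched per member. The share was 32.4% among members called higher at 10 nM and 2 h, 33.3% among those called lower and 38.9% among those not called. At 10 nM and 1 h the order differed: 37% among members called higher, 46.2% among those called lower and 29% among those not called. The differences between these shares were not tested. Because the transporters Slc30a1 and Slc30a4 moved in opposite directions at 10 nM, their windows are shown, with the element in capitals, each read 5′ to 3′ on the gene's strand.
Slc30a1 (chr1:191906531-191906780, + strand): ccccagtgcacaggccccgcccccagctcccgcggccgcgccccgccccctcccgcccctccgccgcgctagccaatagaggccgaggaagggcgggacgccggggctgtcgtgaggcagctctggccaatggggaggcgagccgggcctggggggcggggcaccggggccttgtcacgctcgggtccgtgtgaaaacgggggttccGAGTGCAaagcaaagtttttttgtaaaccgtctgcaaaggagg
Slc30a4 (chr2:122702664-122702913, - strand): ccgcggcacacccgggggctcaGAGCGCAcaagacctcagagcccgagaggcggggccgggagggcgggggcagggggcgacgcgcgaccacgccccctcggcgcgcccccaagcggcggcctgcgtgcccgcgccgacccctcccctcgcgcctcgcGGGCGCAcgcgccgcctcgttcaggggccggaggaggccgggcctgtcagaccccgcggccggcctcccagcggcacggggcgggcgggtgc
Slc30a1 held 1 match, 43 to 37 bases before the start, and Slc30a4 held 2, 228 to 222 and 92 to 86 bases before the start. A match is a description of letters only.

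Copper, magnesium and heme carriers followed with 3 of 6 higher and 3 lower at 10 nM and 2 h (50% each, against 28.6% and 30.1% of all genes), and the same counts under library totals. Without untreated replicate 1, untreated replicate 2 or 10 nM 2 h replicate 1, 1 was lower. Slc31a1 (CTR1), the copper importer of the plasma membrane, had 106.02 and 101.1 CPM at 0.03 nM and 1 h and 137 and 128.9 CPM at 0.03 nM and 2 h. At 10 nM Slc31a1 had 276 and 258 CPM at 1 h and 248 and 248 CPM at 2 h, against 107.3 and 102.7 CPM in untreated cells. Its relative Slc31a2 (CTR2) had 98.02 and 110.9 CPM at 0.03 nM and 1 h and 185 and 209.6 CPM at 0.03 nM and 2 h. At 10 nM Slc31a2 had 186 and 187 CPM at 1 h and 266 and 268 CPM at 2 h, against 86.1 and 88.5 CPM in untreated cells. Slc31a2 differed from Slc31a1 at the low dose: its log2 fold change at 0.03 nM and 2 h was 1.18 ± 0.09, and that of Slc31a1 was 0.34 ± 0.07. The difference between these 2 genes was not tested. The magnesium transporter Slc41a2 had 70.2 and 68.2 CPM at 1 h and 73.3 and 74.5 CPM at 2 h of 10 nM, against 39.6 and 39.7 CPM in untreated cells. The log2 values of Slc41a2 were 0.80 ± 0.07 at 1 h and 0.90 ± 0.07 at 2 h of 10 nM. At 0.03 nM and 2 h it stood at 0.05 ± 0.07, not called. Slc48a1 (HRG1), which returns heme from endolysosomes to the cytosol, had 264 and 239.9 CPM at 1 h and 294 and 258 CPM at 2 h of 10 nM, against 342 and 314 CPM in untreated cells. Slc48a1 was called lower, at -0.38 ± 0.09 at 1 h and -0.25 ± 0.09 at 2 h. The falls of Slc48a1 lost their call without untreated replicate 1 (-0.32, adjusted p 0.0738 at 1 h; -0.19, adjusted p 0.221 at 2 h), without 10 nM 1 h replicate 2 (-0.32, 0.0843) and without 10 nM 2 h replicate 2 (-0.16, 0.27). The other 2 falls were Slc41a1, -0.60 ± 0.17, and Slc41a3, -0.28 ± 0.09, and each lost its call without 10 nM 2 h replicate 1 (adjusted p 0.0924 for Slc41a1 and 0.143 for Slc41a3).

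Of the 23 members of the amino acid and peptide families, 8 rose and 11 fell at 10 nM and 2 h (7 and 14 under library totals). These shares, 34.8% and 47.8%, stand against 28.6% and 30.1% of all genes. The rises were led by carriers of cationic and large neutral amino acids at the plasma membrane and by Slc15a3 and Slc7a14, which are known from endolysosomes. Slc7a1 (CAT1), the importer of arginine and lysine, had 20.8 and 22.3 CPM at 1 h and 42.4 and 44.8 CPM at 2 h of 10 nM, against 14.3 and 11.9 CPM in untreated cells. At 2 h Slc7a1 was at 1.74 ± 0.11 on the log2 scale. Slc7a7 (y+LAT1), which exchanges cationic for neutral amino acids, had 61.99 and 62.9 CPM at 1 h and 104.9 and 104.8 CPM at 2 h of 10 nM, against 30.97 and 33.5 CPM in untreated cells. Slc7a5 (LAT1), the importer of leucine and other large neutral amino acids, changed late. It had 6.94 and 6.85 CPM at 0.03 nM and 1 h and 6.73 and 7.77 CPM at 0.03 nM and 2 h. At 10 nM Slc7a5 had 6.27 and 6.5 CPM at 1 h and 19.7 and 21.9 CPM at 2 h, against 7.24 and 7.3 CPM in untreated cells. The 2 libraries at 10 nM and 2 h lay above the other 8 (1.51 ± 0.12, adjusted p = 4.14e-07). Slc7a5 at 10 nM and 1 h was at -0.19 ± 0.12, not called, and under library totals at -0.55, called lower. The shared heavy chain Slc3a2 had 282 and 285 CPM at 1 h and 411 and 410.3 CPM at 2 h of 10 nM, against 198 and 216 CPM in untreated cells. Slc3a2 rose by 0.45 ± 0.09 at 1 h, which was 0.09 under library totals, and by 0.99 ± 0.09 at 2 h. Slc7a8 (LAT2) was 1 of the 2 members called at 0.03 nM and 1 h. It had 126.9 and 142 CPM at 0.03 nM and 1 h and 181 and 178 CPM at 0.03 nM and 2 h. At 10 nM Slc7a8 had 156 and 164 CPM at 1 h and 227 and 240.1 CPM at 2 h, against 93.7 and 99.8 CPM in untreated cells. Every treated library lay above both untreated ones. The call of Slc7a8 at 0.03 nM and 1 h (0.47 ± 0.08, adjusted p = 0.00850) was lost without either untreated library (0.43, adjusted p 0.182; 0.52, adjusted p 0.0585) and without 0.03 nM 1 h replicate 2 (0.39, adjusted p 0.144).

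Slc15a3, a proton-coupled transporter of histidine and small peptides in endolysosomes, was among the most abundant members and was called higher in 3 of the 4 treated groups. Slc15a3 had 238 and 279 CPM at 0.03 nM and 1 h and 376 and 388 CPM at 0.03 nM and 2 h. At 10 nM Slc15a3 had 618 and 642 CPM at 1 h and 925 and 914 CPM at 2 h, against 216 and 205 CPM in untreated cells. All 8 treated libraries lay above the untreated ones, in the order of dose and time. The log2 fold change was 0.86 ± 0.08 at 0.03 nM and 2 h, 1.58 ± 0.08 at 10 nM and 1 h and 2.13 ± 0.09 at 10 nM and 2 h. Its paralogue Slc15a4 had 101.3 and 99.7 CPM at 1 h and 67.7 and 70.9 CPM at 2 h of 10 nM, against 85.3 and 88.3 CPM in untreated cells. It was called higher at 1 h (0.21 ± 0.08; -0.16 and not called under library totals) and lower at 2 h (-0.33 ± 0.08). Slc7a14, a lysosomal carrier of cationic amino acids, was low. It had 4.54 and 3.22 CPM at 1 h and 9.75 and 9.68 CPM at 2 h of 10 nM, against 1.62 and 2.6 CPM in untreated cells. Its log2 fold change at 10 nM and 2 h was 2.20 ± 0.26. The eighth rise, of the glutamine importer Slc38a1, was 0.50 ± 0.09, and -0.06 under library totals.

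Slc15a2 (PEPT2), the peptide importer of the same family at the plasma membrane, differed more between the experiments than any other member. It had 9.95 and 2.66 CPM at 0.03 nM and 1 h and 9.34 and 1.99 CPM at 0.03 nM and 2 h. At 10 nM Slc15a2 had 20.2 and 4.84 CPM at 1 h and 9.03 and 1.74 CPM at 2 h, against 8.19 and 2.001 CPM in untreated cells. In every group experiment 1 lay above experiment 2, by 1.90 to 2.37 on the log2 scale, and within each experiment the library at 10 nM and 1 h was the highest. The fit without the experiment gave 1.29 ± 1.28, adjusted p = 0.5 at 10 nM and 1 h, and with the experiment as a replicate block it gave 1.29 ± 0.14, adjusted p = 4.02e-05.

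The falls held Slc43a2 (LAT4), which releases large neutral amino acids, with 676 and 653 CPM at 1 h and 456 and 437 CPM at 2 h of 10 nM, against 879 and 864 CPM in untreated cells. At 2 h Slc43a2 was at -0.96 ± 0.08 on the log2 scale. Slc36a1 (PAT1), a proton-coupled exporter of small amino acids from lysosomes, had 79.3 and 73.95 CPM at 0.03 nM and 1 h and 60.7 and 49.6 CPM at 0.03 nM and 2 h. At 10 nM Slc36a1 had 48.9 and 45.6 CPM at 1 h and 30.9 and 32.7 CPM at 2 h, against 77.99 and 81.8 CPM in untreated cells. The log2 fold change of Slc36a1 was -0.53 ± 0.10 at 0.03 nM and 2 h and -1.33 ± 0.10 at 10 nM and 2 h, and both treated groups lay below the untreated libraries. Slc38a9, the lysosomal arginine sensor, had 35.1 and 33.5 CPM at 1 h and 18.1 and 18.4 CPM at 2 h of 10 nM, against 41.3 and 40.5 CPM in untreated cells. At 2 h Slc38a9 was at -1.16 ± 0.10 on the log2 scale. Its smaller fall at 1 h, -0.25 ± 0.09, lost its call in 8 of the 10 fits without 1 library. Slc38a2 (SNAT2), the sodium-coupled importer of glutamine and alanine, changed direction with time at 10 nM. It had 163 and 155 CPM at 0.03 nM and 1 h and 161 and 118.5 CPM at 0.03 nM and 2 h. At 10 nM Slc38a2 had 401 and 334 CPM at 1 h and 103.4 and 114.04 CPM at 2 h, against 219.9 and 219 CPM in untreated cells. At 1 h both libraries lay above the untreated ones (0.74 ± 0.13, adjusted p = 9.47e-04), and at 2 h both lay below them (-1.01 ± 0.13, adjusted p = 4.93e-05). The fall at 0.03 nM and 2 h, -0.65 ± 0.13, lost its call without either untreated library (adjusted p 0.0606 and 0.0597). Slc1a5 (ASCT2), a glutamine importer chosen for mention after its values were seen, had 25.5 and 25.6 CPM at 10 nM and 2 h, against 27.01 and 28.7 CPM in untreated cells, not called.

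Genes of the amino acid stress response were measured too. Atf4, its main transcription factor, had a log2 fold change of 1.12 ± 0.09 at 10 nM and 1 h and 1.09 ± 0.09 at 2 h, both called. Its target Asns was at 0.11 ± 0.17, not called, at 1 h and 0.98 ± 0.16 at 2 h. Sesn2, a leucine sensor, was lower, at -1.17 ± 0.10 and -2.81 ± 0.12, and Ddit3 was at -0.88 ± 0.29 and -1.10 ± 0.29. The amino acid response letters TTGCATCA were present, on either strand, in 1.7% of members with a window and in 0.9% of all genes with a window. The NF-kB motif was present in 8.7% and 8.2% of them. Among the members named here, the window of Slc7a7 held both, with the capitals marking them in this order, 243 to 236 and 124 to 115 bases before the start.
Slc7a7 (chr14:54417703-54417952, - strand): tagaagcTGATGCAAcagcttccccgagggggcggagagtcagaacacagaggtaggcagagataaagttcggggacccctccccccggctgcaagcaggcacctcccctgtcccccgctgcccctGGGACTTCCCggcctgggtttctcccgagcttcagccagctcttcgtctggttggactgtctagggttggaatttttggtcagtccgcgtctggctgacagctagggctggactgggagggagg
The gene has 5 annotated starts in the RefSeq table, and the other windows are not shown. Of its exonic length in the count table, 9.1% overlaps Oxa1l on the opposite strand.

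**Figure D2:**
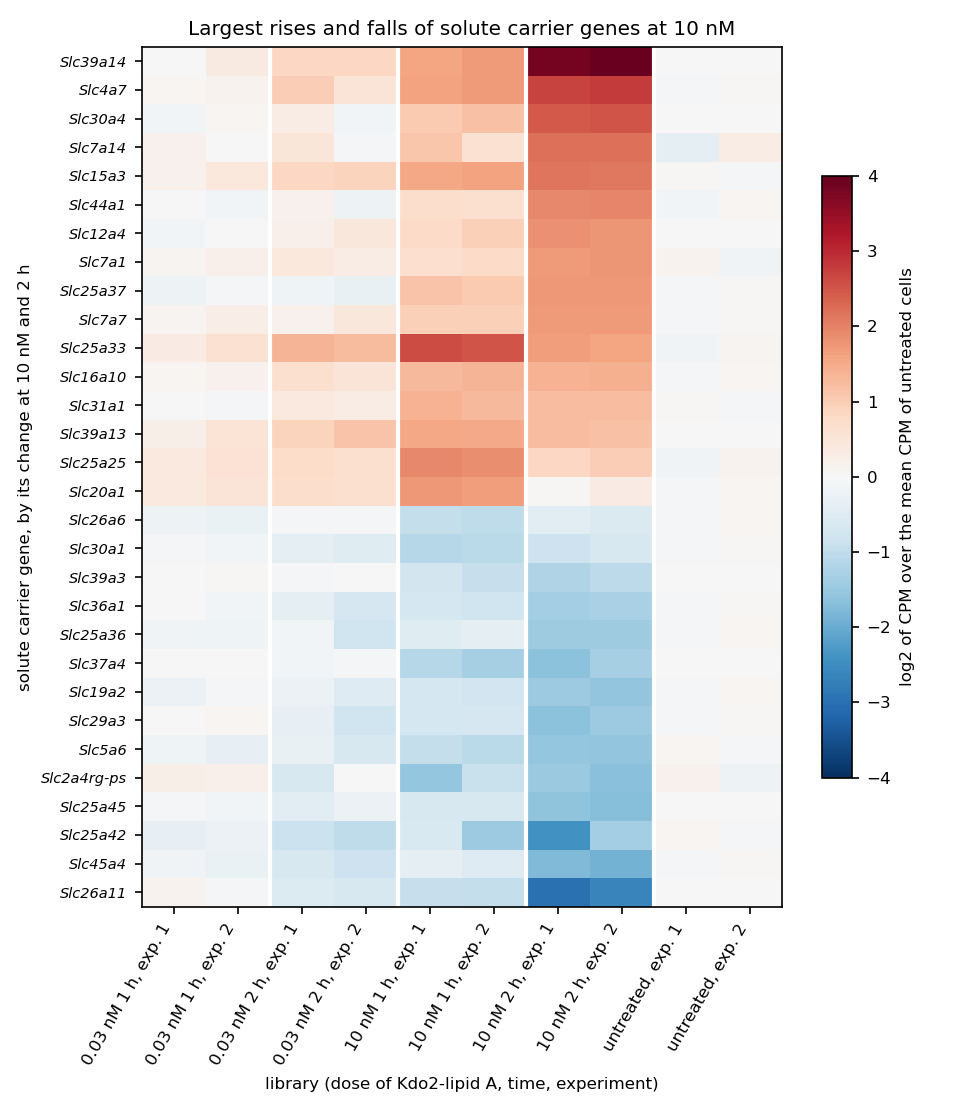
Log2 of each library's CPM over the mean CPM of untreated cells (colour, red higher and blue lower) for the members with the largest called rises and falls at 10 nM, ordered by their change at 2 h. They include the pseudogene Slc2a4rg-ps, and columns are the 10 libraries. Slc39a14 is at the top with a fitted log2 fold change of 3.90 and Slc26a11 at the bottom with -2.80, both at 10 nM and 2 h.

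Among the 21 ion and bicarbonate carriers, 5 rose and 6 fell at 10 nM and 2 h, and 2 rose and 13 fell under library totals. The shares of 23.8% and 28.6% were close to those of all genes, 28.6% and 30.1%. Slc4a7 (NBCn1), a sodium/bicarbonate cotransporter known to serve phagosome acidification in macrophages, had 56.3 and 59.5 CPM at 0.03 nM and 1 h and 105.97 and 75.8 CPM at 0.03 nM and 2 h. At 10 nM Slc4a7 had 162 and 173 CPM at 1 h and 347 and 368 CPM at 2 h, against 51.9 and 54.9 CPM in untreated cells. Every treated library lay above both untreated ones, and at 10 nM and 2 h the log2 fold change was 2.74 ± 0.13, adjusted p = 8.20e-09. The potassium/chloride cotransporter Slc12a4 (KCC1) had 108.1 and 122.4 CPM at 1 h and 228 and 219 CPM at 2 h of 10 nM, against 62.3 and 65.1 CPM in untreated cells. At 2 h Slc12a4 was at 1.81 ± 0.10 on the log2 scale. Slc12a7 (KCC4), its relative, had 93.7 and 87.9 CPM at 1 h and 130.0 and 153 CPM at 2 h of 10 nM, against 85.3 and 88.8 CPM in untreated cells. It was called at 2 h (0.70 ± 0.10) and not at 1 h (0.06 ± 0.10). Under library totals the 2 h value was 0.14 and was not called. The largest fall of any member was that of Slc26a11 (chromosome 11, 119216871 to 119242390 in mm9), a sulfate and chloride transporter found in lysosomes. Slc26a11 had 68.7 and 60.7 CPM at 0.03 nM and 1 h and 42.98 and 40.4 CPM at 0.03 nM and 2 h. At 10 nM Slc26a11 had 33.1 and 32.6 CPM at 1 h and 8.01 and 10.02 CPM at 2 h, against 63.6 and 62.2 CPM in untreated cells. The 2 libraries at 10 nM and 2 h lay far below the other 8, at a log2 fold change of -2.80 ± 0.11, adjusted p = 1.27e-09. Slc26a6, an anion exchanger of the same family, had 7.55 and 7.35 CPM at 1 h and 10.8 and 9.92 CPM at 2 h of 10 nM, against 13.98 and 15.5 CPM in untreated cells. It was lower at 1 h than at 2 h. Slc24a6, now named Slc8b1, the sodium/calcium exchanger of mitochondria, had 174 and 176 CPM at 1 h and 122.03 and 115.1 CPM at 2 h of 10 nM, against 172 and 173 CPM in untreated cells. It fell at 2 h (-0.54 ± 0.08).

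Among the 34 family 25 genes, 10 rose and 13 fell at 10 nM and 2 h (6 and 27 under library totals). Both shares, 29.4% and 38.2%, can be read against the 28.6% and 30.1% of all genes. The largest rise of any member at 10 nM and 1 h was that of a nucleotide carrier. Slc25a33 (PNC1; chromosome 4, 149118145 to 149148376 in mm9), which brings pyrimidine nucleotides into mitochondria, had 3.95 and 4.82 CPM at 0.03 nM and 1 h and 8.08 and 7.51 CPM at 0.03 nM and 2 h. At 10 nM Slc25a33 had 19.1 and 17.8 CPM at 1 h and 10.05 and 9.4 CPM at 2 h, against 2.86 and 3.4 CPM in untreated cells. It was highest at 10 nM and 1 h, with a log2 fold change of 2.56 ± 0.14, adjusted p = 5.16e-08, and the libraries at 10 nM and 2 h came next. Its relative Slc25a36 (PNC2) had 41.3 and 44.2 CPM at 1 h and 21.8 and 21.6 CPM at 2 h of 10 nM, against 54.5 and 61.3 CPM in untreated cells. It fell at 2 h (-1.42 ± 0.19). Slc25a25, a calcium-regulated exchanger of ATP-magnesium and phosphate, had 18.7 and 21.6 CPM at 0.03 nM and 1 h and 23.7 and 22.3 CPM at 0.03 nM and 2 h. At 10 nM Slc25a25 had 54.04 and 52.6 CPM at 1 h and 25.8 and 28.2 CPM at 2 h, against 13.1 and 15.7 CPM in untreated cells. It was highest at 1 h of 10 nM too (1.89 ± 0.11, adjusted p = 7.48e-08), and 10.2% of its exonic length overlaps Naif1 on the opposite strand. The letters TGACGTCA of a cyclic AMP response element were present in 2.6% of members with a window and 1.8% of all genes with a window. Slc25a25 and Slc25a36 each held 1 match, in capitals, 150 to 143 and 161 to 154 bases before the start, and they moved in opposite directions.
Slc25a25 (chr2:32424067-32424316, - strand): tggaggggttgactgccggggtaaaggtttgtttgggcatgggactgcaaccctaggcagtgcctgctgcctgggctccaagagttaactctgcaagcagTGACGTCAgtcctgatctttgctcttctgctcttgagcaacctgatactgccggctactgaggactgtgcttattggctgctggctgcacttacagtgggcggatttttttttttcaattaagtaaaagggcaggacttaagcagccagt
Slc25a36 (chr9:97111042-97111291, - strand): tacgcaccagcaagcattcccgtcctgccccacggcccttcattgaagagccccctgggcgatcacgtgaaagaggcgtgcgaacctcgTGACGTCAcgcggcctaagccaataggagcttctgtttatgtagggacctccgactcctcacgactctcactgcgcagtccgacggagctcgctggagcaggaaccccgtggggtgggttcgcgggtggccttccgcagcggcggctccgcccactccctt
The other 2 windows of Slc25a25 lacked these letters.

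Both mitochondrial iron carriers rose at 10 nM and 2 h, also under library totals. Slc25a37 (mitoferrin 1) had 51.3 and 55.7 CPM at 0.03 nM and 1 h and 52.3 and 47.7 CPM at 0.03 nM and 2 h. At 10 nM Slc25a37 had 128.6 and 120.3 CPM at 1 h and 193 and 195 CPM at 2 h, against 56.95 and 60.1 CPM in untreated cells. All 4 low-dose libraries lay below both untreated ones, with no call, and at 10 nM and 2 h its log2 fold change was 1.73 ± 0.08, adjusted p = 5.25e-09. Slc25a28 (mitoferrin 2) had 18.2 and 19.5 CPM at 0.03 nM and 1 h and 25.3 and 28.8 CPM at 0.03 nM and 2 h. At 10 nM Slc25a28 had 20.04 and 19.9 CPM at 1 h and 40.2 and 37.8 CPM at 2 h, against 19.6 and 19.1 CPM in untreated cells. It was level with untreated cells in both 1 h groups and higher in both 2 h groups, at 0.48 ± 0.09 with 0.03 nM, not called without untreated replicate 2 (adjusted p 0.0646), and 1.01 ± 0.09 with 10 nM. Slc25a38, which brings glycine into mitochondria for heme synthesis, fell, with 5.12 and 5.06 CPM at 10 nM and 2 h, against 11.1 and 9.84 CPM in untreated cells. The glutamate carrier Slc25a22 had 23.1 and 33.9 CPM at 0.03 nM and 1 h and 22.8 and 28.8 CPM at 0.03 nM and 2 h. At 10 nM Slc25a22 had 24.5 and 28.8 CPM at 1 h and 70.7 and 83.9 CPM at 2 h, against 24.8 and 32.95 CPM in untreated cells. Its 2 libraries at 10 nM and 2 h lay above the other 8, and its log2 fold change was 1.42 ± 0.21, adjusted p = 3.40e-04. Slc25a17, the cofactor carrier of peroxisomes, rose, with 47.3 and 45.2 CPM at 1 h and 60.8 and 62.5 CPM at 2 h of 10 nM, against 31.01 and 31.001 CPM in untreated cells. Slc25a45, whose substrates are poorly known, had 53.6 and 53.5 CPM at 1 h and 26.9 and 25.2 CPM at 2 h of 10 nM, against 83.8 and 81.7 CPM in untreated cells. At 2 h Slc25a45 was at -1.67 ± 0.08 on the log2 scale. Slc25a42, the coenzyme A carrier, was low, with 0.46 and 0.957 CPM at 10 nM and 2 h, against 2.6 and 2.29 CPM in untreated cells. Its call at 10 nM and 1 h, -0.98 ± 0.34, was lost without 10 nM 1 h replicate 2 (-0.62, adjusted p 0.275). Of the abundant carriers, Slc25a3 was at 0.37 ± 0.08 at 2 h and Slc25a5 at 0.19 ± 0.07, and both turned negative under library totals (-0.19 and -0.36). Slc25a5 lost its call in 8 of the 10 fits without 1 library. Slc25a39, which brings glutathione into mitochondria, had 77.95 and 73.6 CPM at 1 h and 81.6 and 77.5 CPM at 2 h of 10 nM, against 90.99 and 92.8 CPM in untreated cells. It was at -0.28 ± 0.09 at 1 h, called in 6 of the 10 fits without 1 library, and at -0.21 ± 0.09 at 2 h, not called. Slc25a30 (KMCP1) was called lower at 0.03 nM and 2 h (-0.54 ± 0.15), and that call was lost in 9 of the 10 fits without 1 library and with the replicate block (adjusted p 0.0547).

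Sugar and sugar phosphate families held falls. All 5 sugar family members were called lower at 10 nM and 2 h, against 30.1% of all genes. Under library totals, where 107 of the 152 members were lower, the 5 were lower too. Without untreated replicate 2 or 10 nM 2 h replicate 1, 3 of the 5 were. The largest was Slc45a4, with 106.1 and 98.2 CPM at 0.03 nM and 1 h and 74.6 and 65.5 CPM at 0.03 nM and 2 h. At 10 nM Slc45a4 had 91.5 and 81.4 CPM at 1 h and 34.4 and 31.5 CPM at 2 h, against 114 and 120.1 CPM in untreated cells. All treated libraries lay below both untreated ones. The log2 fold change was -0.74 ± 0.09 at 0.03 nM and 2 h, -0.44 ± 0.09 at 10 nM and 1 h and -1.83 ± 0.10 at 10 nM and 2 h. Slc5a6 (SMVT) carries biotin and pantothenate, not sugar. It had 3.9 and 3.59 CPM at 1 h and 2.59 and 2.53 CPM at 2 h of 10 nM, against 7.91 and 7.16 CPM in untreated cells. At 2 h Slc5a6 was at -1.55 ± 0.17 on the log2 scale. The glucose transporter Slc2a8 had 13.001 and 11.7 CPM at 10 nM and 2 h, against 16.2 and 18.6 CPM in untreated cells. Slc2a9, a urate transporter, had 17.2 and 18.2 CPM at 10 nM and 2 h, against 21.8 and 22.3 CPM in untreated cells. Slc50a1, a sugar exporter by its family, had 10.5 and 12.3 CPM at 10 nM and 2 h, against 14.5 and 13.98 CPM in untreated cells. It lost its call in 7 of the 10 fits without 1 library. The main glucose transporters of macrophages are among the symbols left out by name. Of the 8 phosphate and sugar phosphate members, 4 fell at 10 nM and 2 h (50%, against 30.1% of all genes; 8 members under library totals). Slc37a4, the glucose 6-phosphate transporter of the endoplasmic reticulum, had 10.7 and 10.7 CPM at 0.03 nM and 1 h and 9.91 and 10.1 CPM at 0.03 nM and 2 h. At 10 nM Slc37a4 had 4.77 and 4.26 CPM at 1 h and 3.38 and 4.27 CPM at 2 h, against 10.4 and 10.8 CPM in untreated cells. The low dose left it at the untreated level, and both 10 nM groups lay below it (-1.24 ± 0.14 at 1 h and -1.47 ± 0.14 at 2 h). Slc37a2, abundant in macrophages, had 380.3 and 388 CPM at 1 h and 284 and 322 CPM at 2 h of 10 nM, against 446 and 503 CPM in untreated cells. Its fall at 2 h was -0.64 ± 0.08. Slc37a3, of the same family, had 33.5 and 31.5 CPM at 0.03 nM and 1 h and 25.7 and 25.3 CPM at 0.03 nM and 2 h. At 10 nM Slc37a3 had 23.4 and 21.5 CPM at 1 h and 31.2 and 32.1 CPM at 2 h, against 35.6 and 32.6 CPM in untreated cells. Its fall at 0.03 nM and 2 h (-0.42 ± 0.09) lost its call without untreated replicate 1 (adjusted p 0.113). Slc20a1 (PiT1), the sodium-coupled phosphate importer, was highest at 10 nM and 1 h. It had 59.2 and 65.1 CPM at 0.03 nM and 1 h and 74.2 and 70.5 CPM at 0.03 nM and 2 h. At 10 nM Slc20a1 had 152 and 146 CPM at 1 h and 47.1 and 56.7 CPM at 2 h, against 42.9 and 48.2 CPM in untreated cells. At 10 nM and 1 h it lay above the other groups (1.71 ± 0.10, adjusted p = 7.64e-08), and at 10 nM and 2 h it stood at 0.19 ± 0.10, not called (-0.37 and called lower under library totals).

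Of the 5 mono- and dicarboxylate family members, 1 rose and 2 fell at 10 nM and 2 h (1 and 3 under library totals), shares of 20% and 40% against 28.6% and 30.1% of all genes. Without 0.03 nM 2 h replicate 1, 2 rose, and without either untreated library or either library at 10 nM and 2 h, 1 fell. The dicarboxylate carrier Slc13a3, the most abundant of them per kb in untreated cells, had 120.2 and 91.5 CPM at 1 h and 138 and 108.2 CPM at 2 h of 10 nM, against 117.1 and 92.1 CPM in untreated cells. Against untreated cells Slc13a3 was not called. Its dose difference, 10 nM over 0.03 nM, was 0.29 ± 0.19 at 1 h and 0.45 ± 0.19 at 2 h, not called. With the experiment as a replicate block in the edgeR fit, both were called: 0.29 ± 0.10 (adjusted p = 0.04) and 0.43 ± 0.10 (adjusted p = 0.00381). The monocarboxylate family member Slc16a10 (TAT1) carries aromatic amino acids. It had 131 and 142 CPM at 0.03 nM and 1 h and 193 and 177 CPM at 0.03 nM and 2 h. At 10 nM Slc16a10 had 308 and 320.2 CPM at 1 h and 326 and 332 CPM at 2 h, against 117.5 and 132 CPM in untreated cells. All 10 nM libraries lay above the others, and the log2 fold change at 10 nM and 1 h was 1.33 ± 0.08. Slc16a6 was the other member called at 0.03 nM and 1 h. It had 68.4 and 63.9 CPM at 0.03 nM and 1 h and 56.04 and 47.3 CPM at 0.03 nM and 2 h. At 10 nM Slc16a6 had 41.4 and 40.3 CPM at 1 h and 38.3 and 38.8 CPM at 2 h, against 45.5 and 46.3 CPM in untreated cells. It was highest in the group with the lowest dose and shortest time (0.53 ± 0.09, adjusted p = 0.00850) and lowest at 10 nM and 2 h (-0.25 ± 0.09). The low-dose call was lost without either untreated library (0.51, adjusted p 0.138; 0.54, adjusted p 0.0949) and without 0.03 nM 1 h replicate 1 (0.48, adjusted p 0.0658). The fall at 10 nM and 2 h was lost in 4 of the 10 fits without 1 library (highest adjusted p 0.116, without untreated replicate 2). Of its exonic length, 35.4% overlaps LOC100503496 on the opposite strand. The sources used here do not say whether strand was used in counting.

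Of the 10 vitamin, choline and lipid carriers, 2 rose and 5 fell at 10 nM and 2 h (2 and 8 under library totals; 3 fell without untreated replicate 1 or 10 nM 2 h replicate 1). The shares were 20% and 50%, against 28.6% and 30.1% of all genes. Slc44a1 (CTL1), the choline transporter, had 65.6 and 59.99 CPM at 0.03 nM and 1 h and 72.7 and 56.4 CPM at 0.03 nM and 2 h. At 10 nM Slc44a1 had 105.4 and 102.1 CPM at 1 h and 245 and 254 CPM at 2 h, against 60.6 and 69.1 CPM in untreated cells. It rose at both times of 10 nM, by 0.68 ± 0.11 at 1 h and 1.94 ± 0.12 at 2 h. Slc23a2 (SVCT2), the ascorbate transporter, had 284 and 276 CPM at 1 h and 393 and 399.8 CPM at 2 h of 10 nM, against 172 and 175 CPM in untreated cells. At 2 h Slc23a2 was at 1.19 ± 0.11 on the log2 scale. Slc19a2, the thiamine transporter, fell by more with time, with 4.68 and 4.47 CPM at 1 h and 2.76 and 2.53 CPM at 2 h of 10 nM, against 7.22 and 8.003 CPM in untreated cells. At 2 h Slc19a2 was at -1.52 ± 0.17 on the log2 scale. Slc46a3, a lysosomal carrier, had 73.6 and 65.4 CPM at 1 h and 40.9 and 37.7 CPM at 2 h of 10 nM, against 91.8 and 90.3 CPM in untreated cells. At 2 h Slc46a3 was at -1.21 ± 0.09 on the log2 scale. Of the nucleoside carriers, Slc28a2 (CNT2), an importer, had 20.2 and 25.3 CPM at 1 h and 40.7 and 52.97 CPM at 2 h of 10 nM, against 17.8 and 18.8 CPM in untreated cells. It was called at 2 h (1.36 ± 0.17). Slc29a3 (ENT3), which exports nucleosides from lysosomes, had 118.8 and 125.3 CPM at 0.03 nM and 1 h and 94.9 and 68.3 CPM at 0.03 nM and 2 h. At 10 nM Slc29a3 had 72.9 and 75.9 CPM at 1 h and 38.3 and 43.6 CPM at 2 h, against 114.9 and 124.4 CPM in untreated cells. Both 10 nM groups lay below the untreated libraries, and at 2 h the log2 fold change was -1.55 ± 0.13. The falls of Slc29a3 and Slc46a3 at 0.03 nM and 2 h, -0.55 ± 0.13 and -0.42 ± 0.09, lost their calls without either untreated library (highest adjusted p 0.148 and 0.0963). Slc29a1 (ENT1), the most abundant nucleoside carrier per kb, had 76.1 and 67.1 CPM at 10 nM and 2 h, against 70.9 and 62.5 CPM in untreated cells, not called. Among the nucleotide sugar carriers, Slc35a3, for UDP-N-acetylglucosamine, was at 0.61 ± 0.14 at 10 nM and 2 h, 0.06 under library totals, and Slc35a1, for CMP-sialic acid, was at -0.51 ± 0.12. Slc35a4, the most abundant of that family per kb, was at 0.12 ± 0.08. The 8 organic ion and bile acid family members included 4 called lower and 1, Slc22a15, called higher (0.87 ± 0.22), shares of 50% and 12.5% against 30.1% and 28.6% of all genes. Under library totals 5 were lower and none higher, with Slc22a15 at 0.32, not called; without untreated replicate 2 or 10 nM 2 h replicate 2, 2 were lower. Slc10a3, the most abundant of them per kb, had 18.5 and 16.995 CPM at 10 nM and 2 h, against 20.8 and 21.3 CPM in untreated cells. Its log2 fold change was -0.25 ± 0.09 (adjusted p up to 0.188 without 1 library). Slc22a21 and Slc22a5 are close paralogues, so their counts are uncertain. The urea transporter Slc14a1, the only member outside these families, was not called. Of the 4 symbols that are no carriers, Slc9a3r1 was at 0.53 ± 0.07 at 10 nM and 2 h (-0.03 under library totals). Slc2a4rg-ps was at -1.58 ± 0.30 and Slc4a1ap at -0.40 ± 0.11 (adjusted p 0.104 without untreated replicate 2), while Slc7a6os was at -0.09 ± 0.11, not called.

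**Figure D3:**
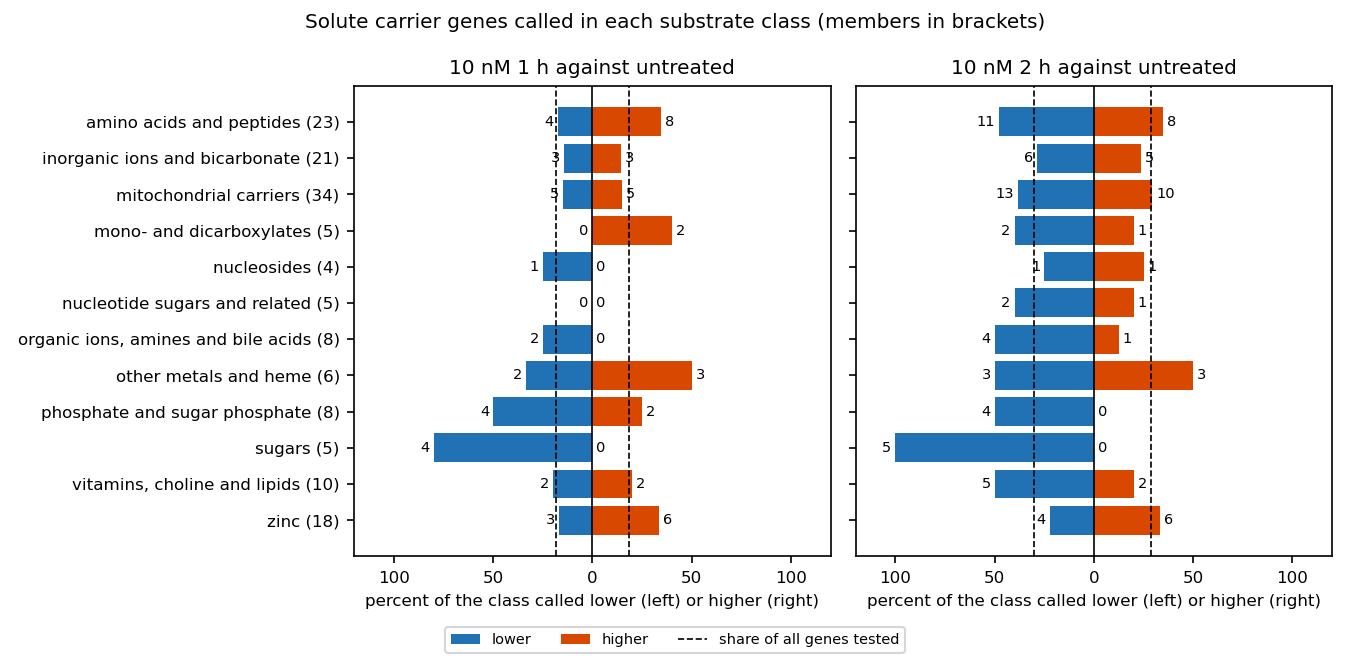
Percent of the solute carrier genes of each substrate class called higher (right, orange) or lower (left, blue) at 10 nM and 1 h and at 10 nM and 2 h, with the counts beside the bars and dashed lines at the shares of all genes tested (18.5% and 18.3% at 1 h; 28.6% and 30.1% at 2 h). The sugar families extend only to the left, with 5 of 5 lower at 2 h. They lack the sugar family genes left out by name, and not all of the 5 carry sugar.

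The dose effect was measured directly by setting 10 nM against 0.03 nM at the same time. At 1 h, 29 members (19.1%) were higher at 10 nM, against 18% of all genes, and 26 (17.1%) were lower, against 17.3%; without 10 nM 1 h replicate 2, 17 were lower. At 2 h, 36 (23.7%) were higher, against 25.6%, and 53 (34.9%) lower, against 27.2%. The change with time was measured within each dose. At 0.03 nM, 12 members (7.89%) were higher at 2 h than at 1 h, against 3.51% of all genes, and 7 (4.61%) were lower, against 1.59%. Without 0.03 nM 1 h replicate 1, only 3 members in all were called, without 0.03 nM 1 h replicate 2, 11 were, and without 0.03 nM 2 h replicate 1, 50 were. At 10 nM, 32 (21.1%) were higher at 2 h, against 21.3%, and 41 (27%) lower, against 21.5%. Slc31a2 and Slc15a3 were among the members that rose with time at both doses: Slc31a2 by 0.92 ± 0.08 at 0.03 nM and 0.52 ± 0.08 at 10 nM, and Slc15a3 by 0.56 ± 0.08 and 0.55 ± 0.08 on the log2 scale. Slc39a14, Slc4a7, Slc25a28, Slc7a8 and Slc30a6 were called higher with time at both doses too.

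Whether the dose effect itself differed between 2 h and 1 h was tested by the interaction, the log2 dose effect at 2 h minus that at 1 h. It called 21 members (13.8%) higher, against 10.4% of all genes, and 21 (13.8%) lower, against 11.6%. Without 10 nM 1 h replicate 1 or 10 nM 2 h replicate 2, it called 14 higher and 13 lower, and without 0.03 nM 2 h replicate 2, 20 higher and 32 lower. The dose effect grew with time for Slc39a14, 3.08 ± 0.11 at 2 h and 1.44 ± 0.11 at 1 h, for Slc7a5, 1.52 ± 0.12 and -0.11 ± 0.12, and for Slc25a22, 1.58 ± 0.21 and -0.10 ± 0.21. It shrank or turned for Slc25a33, 0.32 ± 0.14 at 2 h and 2.07 ± 0.14 at 1 h, for Slc20a1, -0.48 ± 0.10 and 1.27 ± 0.10, and for Slc38a2, -0.36 ± 0.13 and 1.21 ± 0.13. Slc20a1 and Slc38a2 were thus higher at 10 nM than at 0.03 nM at 1 h and lower at 2 h, and each of these 4 dose differences was called. That of Slc38a2 at 2 h was called in 3 of the 10 fits without 1 library (highest adjusted p 0.328, without 0.03 nM 2 h replicate 1). Slc30a1 was called lower at 10 nM than at 0.03 nM at both times, with -0.29 ± 0.08 at 2 h and -1.03 ± 0.08 at 1 h. Without 10 nM 2 h replicate 1, the call at 2 h was lost (adjusted p 0.128).

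**Figure D4:**
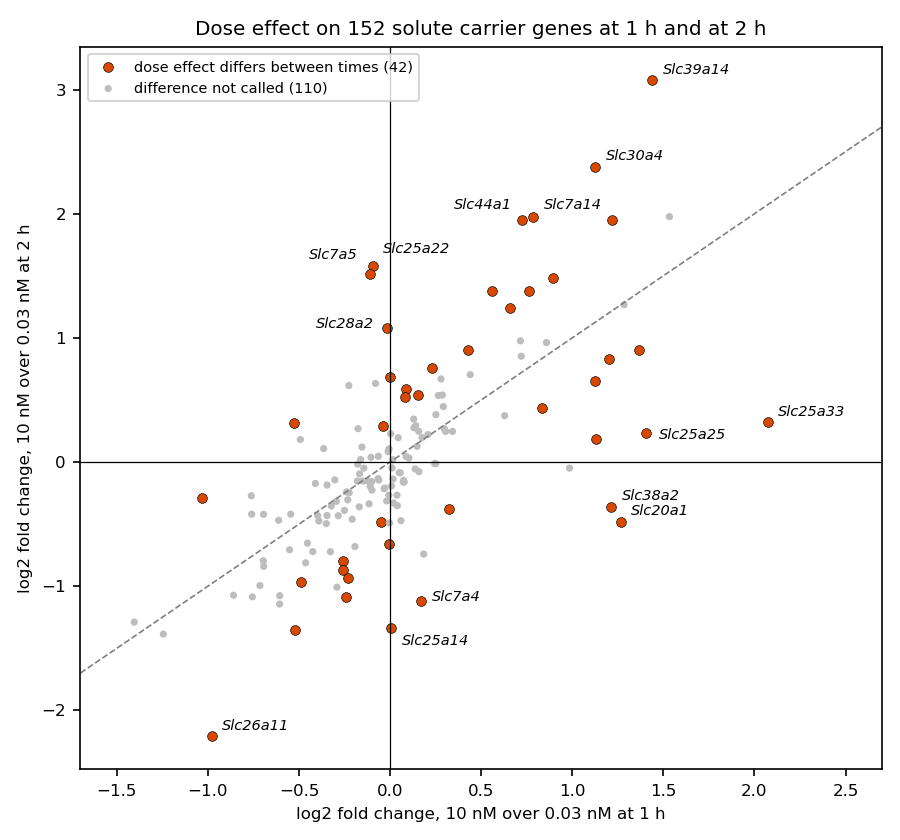
Log2 fold change of 10 nM over 0.03 nM at 2 h (vertical axis) and at 1 h (horizontal axis) for the 152 members, of which 148 are carrier genes. Orange points are the 42 whose dose effect differed between times, grey points the other 110, and the dashed line marks equal effects. Slc7a5 and Slc25a22 lie near 0 at 1 h and above 1.5 at 2 h, and Slc25a33, Slc20a1 and Slc38a2 lie far right of the line.

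Of 26 listed partners and regulators of transport outside the family, 23 were tested. At 10 nM and 2 h, 8 of the 23 were higher and 7 lower (34.8% and 30.4%, against 28.6% and 30.1% of all genes). At 10 nM and 1 h, 7 were higher and 5 lower (30.4% and 21.7%, against 18.5% and 18.3%). The chaperones of monocarboxylate transporters Bsg (0.19 ± 0.08 at 10 nM and 2 h) and Emb (0.00 ± 0.10) were not called. Among the factors of lysosome biogenesis, Tfeb was at -2.57 ± 0.11 and Mitf at 1.85 ± 0.10 at 10 nM and 2 h, both called, in opposite directions. The organic anion transporter Slco4a1 was at -1.80 ± 0.14 at 0.03 nM and 2 h and 1.54 ± 0.13 at 10 nM and 1 h. At 10 nM and 2 h, its relatives Slco3a1 and Slco2b1 were at 1.22 ± 0.22 and -1.11 ± 0.13.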

How the data were processed

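Polyadenylated RNA of 10 macrophage libraries was sequenced on a NextSeq 500 after a strand-marking library preparation, per the labels' protocols. Per the submitters' processing notes, the genome build was mm9 and the tools were featureCounts 1.4.5-p1, DESeq2, TopHat2 2.0.11 and bcl2fastq 2.15.0.4, in no stated order. The deposited values used are raw read counts per gene over its exons, per the file headers. Whether counting used strand is not given in the sources used here. A second deposited table of regularised log2 values was not used.

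Genes were kept with filterByExpr, scaled with TMM and tested with edgeR 4.0.16 (R 4.3.3, limma 3.58.1; quasi-likelihood, robust, 1 mean per group over all 10 libraries, 5 residual degrees of freedom), with Benjamini-Hochberg adjustment over the 12918 genes tested. Levels are CPM with TMM-scaled totals. Each SE was derived from the test, as the absolute log2 fold change over the square root of its F statistic. Count totals per library lay between 33179599 and 42167096. The pipeline was run on counts simulated from its own fitted spread, with no difference between experiments. That run checks the code and cannot show how well the model holds for these data. Alternatives were library totals, DESeq2 1.42.0, no filter, the experiment as a block, a fit of the compared groups alone, and leaving out each library.

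The experiment numbers in the labels are shared by all groups. Same-numbered libraries deviated together with correlations of -0.187 to 0.524 (median 0.288), over 0.1 in 7 of 10 pairs of groups. Within groups, libraries differed beyond sampling noise (chi-square per degree of freedom 10.6 to 39.3), so none was counted as a repeat.

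The members, classes (by family number alone), partners, markers and motifs were chosen with earlier results of these data known. Named were the 10 largest called rises and falls per comparison with untreated cells (same sign in both experiments), the 6 largest per other comparison, the 15 highest in CPM per kb in untreated cells and the highest of each class. The following members were chosen after their values were seen: Slc12a7, Slc14a1, Slc15a2, Slc15a4, Slc1a5, Slc17a5, Slc22a15, Slc22a21, Slc22a5, Slc23a2, Slc25a17, Slc25a28, Slc25a38, Slc28a2, Slc2a8, Slc2a9, Slc30a7, Slc35a1, Slc35a3, Slc38a1, Slc38a7, Slc38a9, Slc41a1, Slc41a2, Slc41a3, Slc4a1ap, Slc50a1 and Slc7a6os. Gene positions are those of the count table (mm9). Promoter windows come from RefSeq (GRCm38.p6), and positions of the 2 builds were not combined.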

Additional observations from a re-analysis of the deposited data

Results flagged for a closer look

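For 14 members, the interaction of edgeR's quasi-likelihood test found a dose effect (10 nM over 0.03 nM) that differed between 2 h and 1 h by more than 2-fold. Each value below is the log2 dose effect at 2 h minus that at 1 h, with its SE and adjusted p. The dose effect was larger at 2 h for Slc25a22 (1.68 ± 0.30, adjusted p = 0.00412), Slc39a14 (1.64 ± 0.15, adjusted p = 2.16e-05), Slc7a5 (1.63 ± 0.17, adjusted p = 5.30e-05), Slc30a4 (1.25 ± 0.17, adjusted p = 2.85e-04), Slc44a1 (1.23 ± 0.16, adjusted p = 2.23e-04), Slc7a14 (1.19 ± 0.36, adjusted p = 0.0347) and Slc28a2 (1.10 ± 0.24, adjusted p = 0.00796). Of these, Slc25a22, Slc7a5 and Slc28a2 had no called dose effect at 1 h; under library totals that of Slc7a5 was -0.47, called lower.

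As a signed log2 value, the dose effect was lower at 2 h for Slc25a33 (-1.75 ± 0.20, adjusted p = 7.86e-05), Slc20a1 (-1.75 ± 0.14, adjusted p = 8.32e-06), Slc38a2 (-1.57 ± 0.19, adjusted p = 1.54e-04), Slc25a14 (-1.34 ± 0.32, adjusted p = 0.0111), Slc7a4 (-1.29 ± 0.38, adjusted p = 0.0308), Slc26a11 (-1.23 ± 0.15, adjusted p = 1.29e-04) and Slc25a25 (-1.17 ± 0.15, adjusted p = 2.45e-04). A lower value was not always a weaker effect. For Slc26a11 the dose effect was -0.98 at 1 h and -2.21 at 2 h, a larger fall with dose at 2 h. That of Slc25a14 was 0.01 at 1 h and -1.34 at 2 h, and that of Slc7a4 0.17 and -1.12. Slc25a14, a mitochondrial carrier, had 1.71 and 1.13 CPM at 10 nM and 2 h, against 3.23 and 3.95 CPM at 0.03 nM and 2 h, and 4.74 and 3.62 CPM at 10 nM and 1 h, against 4.001 and 4.31 CPM at 0.03 nM and 1 h. Slc7a4, an orphan of the cationic amino acid family, had 1.02 and 0.923 CPM at 10 nM and 2 h, against 2.14 and 2.1 CPM at 0.03 nM and 2 h. The calls of Slc25a14, Slc7a4, Slc7a14 and Slc28a2 were not kept in every fit without 1 library: Slc25a14 lost it without 10 nM 1 h replicate 1 (adjusted p 0.0566) and without 10 nM 2 h replicate 2 (0.0529), Slc7a4 and Slc7a14 lost it in 6 of the 10 fits each, and Slc28a2 in 2 (highest adjusted p 0.0602). Under library totals the call of Slc7a14 was lost too (1.06).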

How the results depend on the processing

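At 0.03 nM and 1 h, the 2 called members became 5 with DESeq2, 4 with no filter on low counts, 4 with only the groups compared in the fit, and 0 to 6 without 1 library. At 0.03 nM and 2 h, the 29 became 13 with only the groups compared and 16 to 51 without 1 library, and for 2 h against 1 h at 0.03 nM the 19 became 2 and 3 to 50. The interaction's 42 calls became 27 to 52 without 1 library, and no fit of only the groups compared was made for it. Scaling by library totals gave 116 calls in place of 63 at 10 nM and 1 h and 115 in place of 55 for 10 nM against 0.03 nM at 1 h. It also moved the split of higher and lower members to 13 and 21 at 0.03 nM and 2 h, 21 and 94 for dose at 1 h, 22 and 101 for dose at 2 h, 25 and 65 for time at 10 nM, and 16 and 29 for the interaction, with the median of all genes at -0.37 for dose at 1 h, -0.52 for dose at 2 h, -0.19 for time at 10 nM and -0.15 for the interaction. Under library totals, log2 fold changes at 10 nM turned negative, among others, for Slc24a6 (-0.35), Slc25a28 (-0.32) and Slc15a4 (-0.16) at 1 h, for Slc20a1 (-0.37), Slc25a4 (-0.51) and Slc29a1 (-0.45) at 2 h, and at 1 h and 2 h for Slc25a3 (-0.094, -0.19), Slc25a5 (-0.30, -0.36), Slc35a4 (-0.32, -0.44), Slc39a7 (-0.34, -0.45), Slc9a3r1 (-0.24, -0.0301) and Slc9a9 (-0.25, -0.44). Those of Slc13a3 (-0.35, -0.32) and Slc38a1 (-0.18, -0.06) turned at 1 h and 2 h too. So did Slc12a7 (-0.31) and Slc28a2 (-0.05) at 1 h and Slc30a7 (-0.0046) at 2 h. With the experiment as a replicate block, 3, 32, 65 and 101 members were called against untreated cells at 0.03 nM 1 h, 0.03 nM 2 h, 10 nM 1 h and 10 nM 2 h. Over all 9 comparisons the block added 21 calls and ended 4, among named values by the rule that of Slc25a30 at 0.03 nM and 2 h (-0.54, adjusted p 0.0547). Of 142 called values of named members, 111 kept their call in every fit without 1 library. Slc25a42, Slc7a4 and Slc7a14 stood at under 3 CPM in untreated cells, and the part of depth in their lost calls was not tested.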

Other observations

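The lysosomal carriers Slc17a5 and Slc38a7 were chosen for mention after their values were seen. Slc17a5, the sialic acid exporter, had 61.6 and 61.2 CPM at 1 h and 45.3 and 47.9 CPM at 2 h of 10 nM, against 81.8 and 75.8 CPM in untreated cells. Its log2 fold change at 2 h was -0.76 ± 0.08, adjusted p = 7.57e-06. Slc38a7, a glutamine exporter, had 36.6 and 42.6 CPM at 1 h and 32.1 and 38.1 CPM at 2 h of 10 nM, against 49.5 and 52.6 CPM in untreated cells. Its log2 fold change at 2 h was -0.54 ± 0.12, adjusted p = 0.00155.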
